A study of Mus musculus with 8 samples.

Results

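A set of 10 genes that mark the outer layer of the blastocyst and its trophoblast descendants was followed across both RNA-seq experiments of the series. They are the simple-epithelial keratins Krt8, Krt18, Krt19 and Krt7, the placental gene Plac1, and the transcription factors Tfap2c, Cdx2, Gata3, Tead4 and Eomes. The genes were chosen by symbol, and all 10 were among the 13056 protein-coding genes listed for the sorted cells and the 14319 listed for the overexpressing cells. All samples were mouse embryonic stem cells (mESCs) with a C57BL/6(F) x 129/sv(M) background, labelled with a developmental time of 3.5 days and grown on gelatin in medium with serum and leukaemia inhibitory factor. In the first experiment, 500 KLF3-GFP-positive or 500 KLF3-GFP-negative cells per sample were sorted (called positive and negative cells from here on) and sequenced by Smart-seq2, which amplifies full-length cDNA from few cells. The reporter line came from colonies picked for DsRed and expressed, from a CAGGS promoter, the N-terminal part of KLF3 without its DNA-binding domain fused to GFP. In the second experiment, doxycycline induced codon-optimized Klf3 or GFP for 72 hours from the Col1a1 locus in picked clones of R26 mESCs, which carry the M2rtTA transactivator at Rosa26, and poly(A) RNA was sequenced. Each of the 4 conditions had 2 samples.

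The trophectoderm is the first epithelium of the mouse embryo. Its outer cells lay down filaments of KRT8 and KRT18, in which a type II keratin pairs with a type I keratin, and the same keratins are later used by other simple epithelia, including the primitive endoderm and its derivatives. The transcription factor TEAD4, with its coactivator YAP1, acts upstream of CDX2 and GATA3 in the trophectoderm, and EOMES and TFAP2C act with CDX2 in trophoblast stem cells.

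Sequence around Krt8 and Krt18 is shown because these keratins had the largest differences of the 10 genes in sorted cells and lie side by side. In mm10, Krt8 (ENSMUSG00000049382, chromosome 15 from 101996711 to 102004342, minus strand) and Krt18 (ENSMUSG00000023043, chromosome 15 from 102028216 to 102032026, plus strand) point away from each other, with 23.9 kb between their starts. The lines below give RefSeq sequence (GRCm38.p6) upstream of both genes, cut where the outermost GENCODE M21 exon begins, 5′ to 3′ on the strand of each gene, with CACCC (the box bound by Krüppel-like factors) or its reverse complement GGGTG in capitals.
Krt8 upstream, chr15:102004483-102004592, minus strand: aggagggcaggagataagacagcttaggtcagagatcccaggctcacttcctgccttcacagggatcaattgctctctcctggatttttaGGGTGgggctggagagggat
Krt18 upstream, chr15:102027966-102028179, plus strand: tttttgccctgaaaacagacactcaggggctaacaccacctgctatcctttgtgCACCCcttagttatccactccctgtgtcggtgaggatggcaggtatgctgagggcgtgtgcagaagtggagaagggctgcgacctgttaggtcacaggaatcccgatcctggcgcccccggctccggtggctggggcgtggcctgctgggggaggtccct
Each of these stretches held 1 such box. In the full windows of 250 bases before to 50 bases after the RefSeq start, Krt8 and Krt18 held 2 each. RefSeq windows were matched for 7 of the 10 genes, with 2 windows for Plac1. CACCC was present on either strand in 5 of these 8 windows (3 matches for Gata3, 1 each for Cdx2 and Krt7) and in 57.5% of all 32851 windows. The longer form CCNCNCCC, which can overlap CACCC, was present in 7 of the 8 and in 49.5% of all windows. Other motifs were searched on both strands too. The AP-2 motif GCCNNNGGC, read by factors such as TFAP2C, was in 4 of the 8 windows and 16.6% of all. A GATA-factor motif, AGATAA, was in 2 of the 8 and 11.2% of all. The TATA box, searched as TATAAA, was in 1 of the 8 and 13.6% of all. The TEAD motif GGAATG was in 0 of the 8 and 14.7% of all. These are counts of letters in the windows and were not compared with binding data.

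The study also measured Krt8 by RT-qPCR, and its primer pair is printed to show which part of the transcript that assay reads.
Krt8 forward primer, chr15:101997079-101997098 in mm10, minus strand: cctggcttcagctacggaat
Krt8 reverse primer, chr15:101996974-101996993 in mm10, plus strand: agcttcccatctcgggtttc
Both primers lie in coding sequence of exon 9, the last of the 9 exons, and would give a product of 125 bp. Neither matched a transcript of another gene in GENCODE M21. RNA-seq reads have less room to separate Krt8 from its processed copy: 26.9% of the 50-base stretches of the Krt8 transcript also occur in the pseudogene Krt8-ps, whereas at most 0.72% of those of any other of the 10 genes occur in another gene.

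The tables hold 1 value per gene and condition, the mean FPKM (fragment numbers scaled by transcript length and sequencing depth) that the authors computed over both replicates, with 0.10 as the lowest value listed. The spread between replicates and the number of reads are unknown, so no SD, interval or test on replicates stands beside a value, and neighbours in an order of levels cannot be said to differ. Differences are given as log2(FPKM + 1) of the KLF3 condition minus that of its control, which understates the change of low genes. Genes were compared if their 2 values averaged 1 FPKM or more, and a difference past 2-fold on this scale was called. The median difference of all genes compared was 0.03 in sorted and -0.18 in overexpressing cells. The targeted gene Klf3 was at 107 FPKM in negative and 122 FPKM in positive cells, where reads from the KLF3 part of the reporter may be included. Klf3 was at 58.7 FPKM with GFP and 47.8 FPKM with KLF3 overexpression, where the codon-optimized transgene need not align to it. The column labelled KLF3 overexpression stood apart on chromosome Y: Eif2s3y was 30.9 FPKM with GFP and 1.67 FPKM with KLF3, and Uty and Ddx3y were at the lowest value with KLF3, so differences between the clones other than the transgene cannot be told apart from it.

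Of the 10 genes, 7 reached the minimum in sorted cells, and 5 of them were more than 2-fold higher in positive cells, where 13.8% of all genes compared were. In overexpressing cells 8 reached the minimum and 4 were more than 2-fold higher with KLF3, against 6.60% of all genes compared. None of the 7 and 8 genes compared was called lower, where 8.32% and 10.1% of all genes compared were. With so few genes, none cannot be told apart from these shares. Tfap2c lay just inside the limit, with plain ratios of control to KLF3 of 3.12 in sorted cells and 2.003 on overexpression. The median difference was 1.13 over the 7 and 1.59 over the 8 genes. Some genes reached the minimum only through the KLF3 condition and had to be higher there. Among members with at least 1 FPKM in the control itself, 3 of 4 were called higher in sorted cells (10.7% of all genes so selected) and 3 of 7 in overexpressing cells (5.64%). In bulk samples such as these, fewer cells that express a gene and less RNA per cell cannot be told apart.

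**Figure D1:**
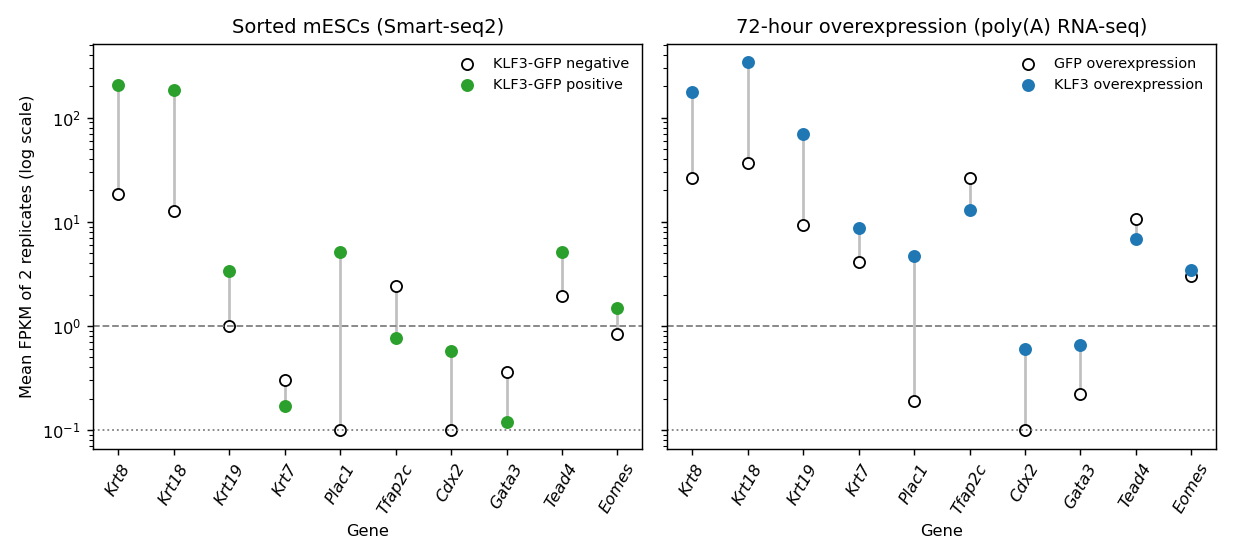
Mean FPKM (log scale) of the 10 genes in negative (open) and positive (green) cells, left, and in GFP- (open) and KLF3-overexpressing (blue) cells, right, each circle being the authors' mean of 2 replicates. The dotted line marks the lowest value of the tables (0.10 FPKM) and the dashed line 1 FPKM. Krt8 and Krt18 reach 176 FPKM or more in both KLF3 conditions, whereas Cdx2 and Gata3 stay below 1 FPKM throughout.

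Krt8, the type II partner of the pair, was 18.3 FPKM in negative and 206 FPKM in positive cells. This is a difference of 3.43 on the log2 scale and a plain ratio of 11.3, and 81 of the 9212 genes compared had a larger one. On overexpression Krt8 was 26.3 FPKM with GFP and 176 FPKM with KLF3, a difference of 2.70 and a ratio of 6.71, with 22 of 11179 genes above it. Krt18, its type I partner, was 12.7 FPKM in negative and 183 FPKM in positive cells (difference 3.75, ratio 14.4). With overexpression it was 36.6 FPKM with GFP and 340 FPKM with KLF3 (difference 3.18, ratio 9.27), and 11 genes had a larger difference. Both partners were thus among the genes with the largest differences in both experiments, and Krt18 had the larger ratio of the pair each time.

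Krt19, a type I keratin of simple epithelia that lacks the usual tail domain, behaved unevenly between the experiments. The gene (ENSMUSG00000020911) lies in the type I keratin cluster on chromosome 11 from 100140810 to 100148665 in mm10, minus strand. It was 0.99 FPKM in negative and 3.35 FPKM in positive cells, a difference of 1.13 that 1079 genes exceeded. On overexpression it was 9.28 FPKM with GFP and 69.7 FPKM with KLF3, a difference of 2.78 and a ratio of 7.51, which 19 genes exceeded. Krt7, a type II keratin of trophoblast and glandular epithelia (ENSMUSG00000023039, chromosome 15 from 101411043 to 101430313, plus strand), stayed below the minimum in sorted cells, with 0.30 FPKM in negative and 0.17 FPKM in positive cells. With overexpression it was 4.14 FPKM with GFP and 8.76 FPKM with KLF3. Its difference of 0.93 there missed the 2-fold limit, and with median-ratio scaling, which sets the median of all genes to 0, it was 1.10 and passed. Krt8 and Krt18 alone of the 4 keratins were above 10 FPKM in every condition.

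Summed over the 4 keratins, the level was 32.3 FPKM in negative and 393 FPKM in positive cells, a ratio of 12.2. It was 76.3 FPKM with GFP and 594 FPKM with KLF3 overexpression, a ratio of 7.79. The type II members Krt8 and Krt7 made up 57.6% of this sum in negative and 52.6% in positive cells. On overexpression their share was 39.9% with GFP and 31.1% with KLF3. Within these 4 genes, type I transcripts therefore took the larger part in both overexpression columns and the smaller part in both sorted columns. Their share of this sum was larger in the KLF3 condition of each table. Other keratins were not in the sum, so these shares do not describe all keratins listed. Among those left out, the type I keratin Krt42 was 50.4 FPKM in negative and 6.59 FPKM in positive cells. With GFP and KLF3 overexpression it was 37.5 and 43.8 FPKM. The ratio of Krt18 to Krt8, on FPKM per length, was 0.695 in negative and 0.887 in positive cells, and 1.39 with GFP and 1.93 with KLF3 overexpression. Library methods differed between the tables, so the levels were not compared across them.

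**Figure D2:**
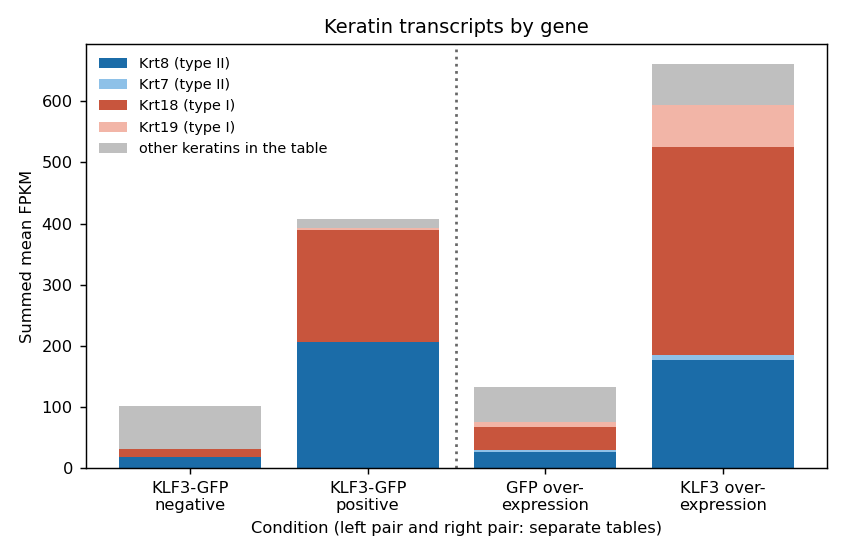
Summed mean FPKM of all keratin genes listed, by condition. The type II members Krt8 and Krt7 are blue and the type I members Krt18 and Krt19 red. All other keratins, whatever their type, are grey. Krt8, Krt18, Krt19 and Krt7 sum to 32.3 of 101 FPKM in negative and 393 of 408 FPKM in positive cells, and to 76.3 of 133 FPKM with GFP and 594 of 661 FPKM with KLF3 overexpression.

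Of 50 further keratin genes looked up, 6 were listed for sorted and 11 for overexpressing cells, and 3 and 4 of these reached the minimum. In sorted cells 2 of the 3 were more than 2-fold lower in positive cells and none was higher (median -1.95). Among all genes compared there, 8.32% were lower. Krt42, a type I keratin, was the most abundant keratin of negative cells at 50.4 FPKM and was 6.59 FPKM in positive cells (difference -2.76). Krt17, a type I keratin of stratified epithelia and skin appendages, was 8.41 FPKM in negative and 1.44 FPKM in positive cells (difference -1.95). Krt10, a keratin of differentiated epidermis, was 9.04 and 6.49 FPKM. On overexpression none of the 4 passed 2-fold (median 0.40). With quantile normalization 1 was higher, and with the trend with gene length removed the median was -0.02. Krt42 was 37.5 FPKM with GFP and 43.8 FPKM with KLF3, Krt14, a keratin of basal epidermis, was 2.36 and 4.73 FPKM, and Krt10 was 0.62 and 1.42 FPKM. The other keratins summed to 68.8 FPKM in negative and 14.9 FPKM in positive cells, and to 56.9 FPKM with GFP and 66.3 FPKM with KLF3 overexpression. Krt17 shares 3.99% of its 50-base stretches with other genes, mostly with Krt14.

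Genes that anchor keratin at desmosomes and other intermediate filament genes were mixed. Of 26 such genes, 15 were compared in sorted cells, with 2 more than 2-fold higher and 3 lower (median 0.07), and 18 on overexpression, with 3 higher and 1 lower (median 0.07). The 13.3% higher in sorted cells lay near the 13.8% of all genes compared, of which 8.32% were lower. On overexpression 6.60% of all genes were higher and 10.1% lower. Quantile normalization left 1 gene higher in sorted cells, and removal of the trend with gene length left 1 higher and 2 lower on overexpression. Lmna, which encodes the nuclear lamins A and C, was higher in both, at 18.4 and 107 FPKM in negative and positive cells (difference 2.48) and 15.6 and 62.2 FPKM with GFP and KLF3 overexpression (1.93). Vim, the intermediate filament of mesenchymal cells, was lower in sorted cells (12.4 and 4.15 FPKM, difference -1.38), as was Perp, a desmosomal membrane protein (8.95 and 3.37 FPKM, -1.19). The desmosomal cadherin Dsg2 was higher in positive cells (3.17 and 8.11 FPKM, 1.13) and lower with KLF3 overexpression (11.8 and 2.96 FPKM, -1.69). The plakophilin Pkp3 went the other way, with 51.9 and 22.8 FPKM in sorted cells (-1.15) and 18.2 and 40.1 FPKM on overexpression (1.10).

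Within 200 kb of Krt8 and Krt18, 7 further genes were compared in sorted cells, with differences from -1.67 to 1.80. Of these, 2 were more than 2-fold higher and 2 lower, where 13.8% and 8.32% of all genes compared were. On overexpression 8 were compared, with differences from -0.84 to 1.38, and 2 were higher and none lower (6.60% and 10.1% of all genes). Eif4b, a translation initiation factor whose start lies 69.4 kb from that of Krt8, had 13.5 and 14.8 FPKM in sorted and 241 and 135 FPKM in overexpressing cells. The genes more than 2-fold higher were Igfbp6, which encodes an insulin-like growth factor binding protein, and Soat2, an enzyme of cholesterol esterification, in both experiments. Igfbp6 was 0.25 and 2.37 FPKM in sorted cells (difference 1.43) and 0.53 and 2.97 FPKM on overexpression (1.38), which are plain ratios of 9.48 and 5.604. It was below 1 FPKM in both controls, reached the minimum only through the KLF3 conditions and had to be higher there. Soat2 was 1.37 and 7.24 FPKM (1.80) and 1.40 and 4.13 FPKM (1.10). Csad, a taurine synthesis enzyme, and the integrin Itgb7 were more than 2-fold lower in positive cells (-1.67 and -1.43) and at 0.03 and 0.33 on overexpression. For Tns2, Spryd3 and Zfp740 the differences lay within 2-fold wherever they were compared, and Krt79 was below the minimum.

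**Figure D3:**
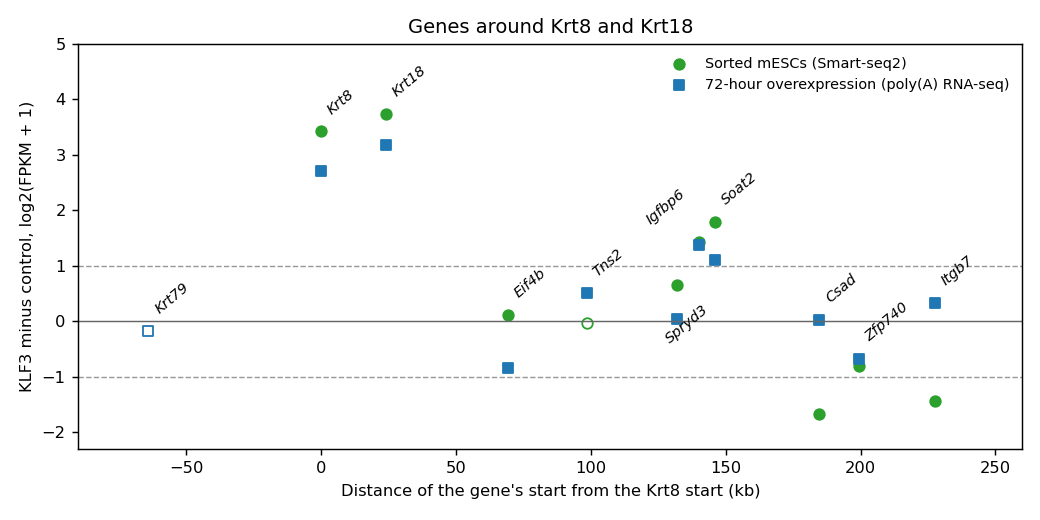
Difference of log2(FPKM + 1), KLF3 condition minus control, against the distance of each gene's start from the Krt8 start in kb, for sorted (green circles) and overexpressing cells (blue squares), with open symbols below the minimum level and dashed lines at 2-fold. Krt8 and Krt18 lie at 2.70 or more in both experiments, and the highest of their neighbours, Soat2, reaches 1.80.

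Plac1, an X-linked gene of the placenta whose product sits at the surface of trophoblast cells (ENSMUSG00000061082, chromosome X from 53069995 to 53240111, minus strand), was at the lowest value in negative and at 5.11 FPKM in positive cells. The difference was 2.47, with 207 genes above it. With GFP overexpression it was 0.19 FPKM and with KLF3 4.65 FPKM, a difference of 2.25 that 44 genes exceeded. Plac1 was therefore near the lowest value in both controls and near 5 FPKM in both KLF3 conditions. It reached the minimum only through the KLF3 conditions.

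Of the 5 transcription factors, Tead4 was called higher in sorted cells and none was called on overexpression. Cdx2, the homeodomain factor required for the trophectoderm (ENSMUSG00000029646, chromosome 5 from 147300805 to 147307270, minus strand), was at the lowest value in negative and 0.57 FPKM in positive cells, and at the lowest value with GFP and 0.60 FPKM with KLF3 overexpression. Gata3 (ENSMUSG00000015619, chromosome 2 from 9857078 to 9890034, minus strand), a zinc finger factor that acts beside CDX2, was 0.36 FPKM in negative and 0.12 FPKM in positive cells, and 0.22 FPKM with GFP and 0.66 FPKM with KLF3. Both genes were below the minimum in both experiments, so no call was made for them, and their differences depended on the pseudocount. For Cdx2 they were 0.51 and 0.54 with 1 FPKM and 1.74 and 1.81 with 0.1 FPKM. For Gata3 they were -0.28 and 0.44 with 1 FPKM and -1.06 and 1.25 with 0.1 FPKM. In KLF3-overexpressing cells 18.1% of the listed genes were below Cdx2 and 19.1% below Gata3, against 97.8% below Krt18.

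Eomes, a T-box factor of trophoblast stem cells and later of the primitive streak (ENSMUSG00000032446, chromosome 9 from 118478212 to 118486132, plus strand), was 0.83 and 1.48 FPKM in negative and positive cells and 3.04 and 3.43 FPKM with GFP and KLF3 overexpression. Its differences of 0.44 and 0.13 were within 2-fold, and the second became -0.17 on removal of the trend with gene length. Tfap2c, which encodes AP-2 gamma (ENSMUSG00000028640, chromosome 2 from 172549593 to 172558622, plus strand), was the member that was lower in both KLF3 conditions. It was 2.40 FPKM in negative and 0.77 FPKM in positive cells, and 26.2 FPKM with GFP and 13.1 FPKM with KLF3. The differences of -0.94 and -0.95 lay just inside the 2-fold limit. Without a pseudocount both passed, at -1.64 in sorted cells and just past the limit on overexpression.

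Tead4, the DNA-binding partner of YAP1 (ENSMUSG00000030353, chromosome 6 from 128224288 to 128300823, minus strand), was 1.92 FPKM in negative and 5.08 FPKM in positive cells. The difference of 1.06 lay just past the limit, and with quantile normalization (0.92) or removal of the trend with gene length (0.96) it did not pass. With overexpression Tead4 was 10.7 FPKM with GFP and 6.80 FPKM with KLF3, a difference of -0.59. In this experiment the differences moved with genomic length. Over 5 equal groups of genes by length, the median was 0.35 in the shortest group, which holds Krt18, and -0.49 in the longest, which holds Tead4 and Plac1. Krt8, Krt19, Tfap2c and Eomes belong to the next shortest group (median -0.01). In sorted cells the medians of the groups lay between -0.03 and 0.12. With the trend removed, Krt18 had 2.66 and Krt8 2.39 on overexpression, and the part of gene length in the differences was not tested further.

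**Figure D4:**
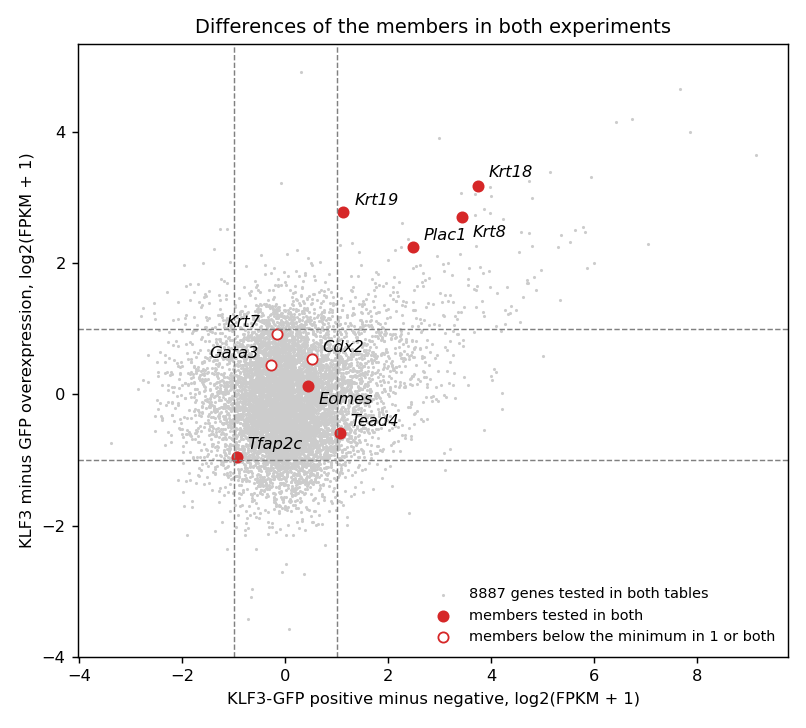
Difference of log2(FPKM + 1) in sorted cells (x axis, KLF3-GFP positive minus negative) against that on overexpression (y axis, KLF3 minus GFP) for the 8887 genes compared in both (grey), with the members compared in both (red) and those below the minimum in 1 or both (open). Dashed lines mark 2-fold. Krt8, Krt18, Krt19 and Plac1 lie in the upper right corner, whereas Cdx2, Gata3 and Eomes lie inside the 2-fold limits at this pseudocount, which Cdx2 and Gata3 pass with a pseudocount of 0.1 FPKM.

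In both experiments 7 members were compared (Krt8, Krt18, Krt19, Plac1, Tfap2c, Tead4 and Eomes). Of these 7, 4 were more than 2-fold higher in both, namely Krt8, Krt18, Krt19 and Plac1, where 227 of 8887 genes (2.55%) were. Plac1 was below 1 FPKM in both controls (0.10 and 0.19 FPKM) and Krt19 in negative cells (0.99 FPKM). There they reached the minimum only through the KLF3 condition and had to be higher in it. Over all 10, 3 genes had differences of opposite sign in the experiments (Krt7, Gata3 and Tead4). Krt8 and all genes with differences at least as large as its own in both experiments numbered 17, with Krt18 among them. The 5 genes closest to Krt8, by the distance between pairs of differences over the 4 columns, were Car4 (0.27), Gadd45g (0.38), Clu (0.44), Nxf7 (0.46) and Vamp8 (0.52). Car4, a carbonic anhydrase, was 33.96 and 449.97 FPKM in sorted and 18.2 and 126 FPKM in overexpressing cells. Closest to Krt18 were Clu (0.13), Tinagl1 (0.24), Fxyd3 (0.29), Gadd45g (0.35) and Nxf7 (0.37). Clu, which encodes the secreted chaperone clusterin, was 6.22 and 91.4 FPKM and 12.7 and 113 FPKM. Krt19 lay farther from any other gene, with Ctgf (0.50), Tnnc1 (0.50), E130012A19Rik (0.68), Timp2 (0.87) and Bin1 (0.89) as the closest. These distances rest on 2 differences per gene.

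Relatives of the member transcription factors were looked up as a list of 23 genes. In sorted cells 6 were compared and 3 were more than 2-fold higher (median 0.90), and on overexpression 8 were compared and 2 were higher (median 0.44), with none lower. Among all genes compared, 13.8% and 6.60% were higher, and 8.32% and 10.1% lower. With so few genes compared, none lower cannot be told apart from these shares. Gata4 and Gata6, both also counted among the primitive endoderm markers, were higher in both experiments. On overexpression 3 were higher with median-ratio scaling and 4 with quantile normalization, which also gave 1 lower in sorted cells. Gata4, a GATA factor of the endoderm, was 1.07 and 23.4 FPKM in negative and positive cells and 4.16 and 18.7 FPKM with GFP and KLF3 overexpression (differences 3.56 and 1.93), and Gata6, also of the endoderm, was 1.63 and 21.3 FPKM and 1.05 and 6.54 FPKM (3.09 and 1.88). Gata2, a GATA factor of the trophoblast, was 0.62 FPKM with GFP and 1.98 FPKM with KLF3 overexpression (0.88, within 2-fold). Tbx3, a T-box factor of naive pluripotent cells, was 10.1 and 21.4 FPKM in sorted cells (1.02). With median-ratio scaling or quantile normalization 2 of the 6 were higher in sorted cells. Cdx1, a homeodomain factor related to Cdx2, was 3.33 and 1.26 FPKM in sorted cells (-0.94) and 5.78 and 11.6 FPKM on overexpression (0.89). Tead2, the TEAD gene with the highest level, was 12.2 and 13.0 FPKM and 98.6 and 83.3 FPKM.

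Of 30 genes of the Hippo pathway, through which TEAD4 is controlled, 23 were compared in sorted cells, with 7 more than 2-fold higher and none lower (median 0.74). On overexpression 26 were compared, with 4 higher and 3 lower (median -0.27, against -0.18 for all genes). In sorted cells 13.8% of all genes compared were higher and 8.32% lower. On overexpression 6.60% were higher and 10.1% lower, the latter near the 11.5% of this list. Cyr61, Ctgf and Ankrd1, known targets of YAP1 and TEAD factors, were higher in both. Cyr61, a secreted matrix protein, was 1.17 and 50.5 FPKM in sorted and 8.36 and 51.2 FPKM in overexpressing cells (differences 4.57 and 2.48). Ctgf, of the same family, was 1.70 and 4.67 FPKM (1.07) and 7.22 and 39.1 FPKM (2.29). Ankrd1, an ankyrin repeat protein, was 0.19 and 28.1 FPKM (4.61) and 2.22 and 8.00 FPKM (1.48). Amot, a scaffold that holds YAP1 outside the nucleus, was at the lowest value in negative and 10.03 FPKM in positive cells (3.33), and 0.91 and 3.26 FPKM on overexpression (1.16). Ankrd1 in sorted cells and Amot in both experiments reached the minimum only through the KLF3 condition and had to be higher there. Yap1 itself was 2.57 and 4.97 FPKM and 24.5 and 23.7 FPKM, within 2-fold in both experiments. The 3 genes lower on overexpression were Nf2, Mob1a and Vgll4, and 1 was left with median-ratio scaling, quantile normalization or the trend with gene length removed.

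Other regulators known from the trophoblast were mixed. Of 32 such genes, 22 were compared in sorted cells, with 6 more than 2-fold higher and 5 lower (median 0.14), and 25 on overexpression, with 5 higher and 2 lower (median 0.44). Shares of all genes compared were 13.8% higher and 8.32% lower in sorted cells, and 6.60% higher and 10.1% lower on overexpression. Quantile normalization gave 8 higher on overexpression. Cited1, a transcriptional coactivator, had the largest difference in both, with 1.02 and 123 FPKM in sorted and 1.80 and 26.8 FPKM in overexpressing cells (5.94 and 3.31). The zinc finger factor Klf6 (2.24 and 19.0 FPKM, 2.63) and the homeodomain factor Msx2 (0.79 and 7.60 FPKM, 2.26) followed in sorted cells. On overexpression Id1, an inhibitor of helix-loop-helix factors, was 29.6 and 129 FPKM (2.09), and Hand1, a factor of trophoblast giant cells, was 0.83 and 4.16 FPKM. Cited1 is also listed as a marker of primitive endoderm. Msx2 and Fgfr2 were below 1 FPKM in negative cells (0.79 and 0.61 FPKM), as were Hand1 and Msx2 with GFP (0.83 and 0.71 FPKM). In those experiments they counted as higher but reached the minimum only through the KLF3 condition and had to be higher there.

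Of 46 surface, secreted and later trophoblast genes, 19 were compared in sorted cells, with 10 more than 2-fold higher and 3 lower (median 1.43). Among all genes there, 13.8% were higher and 8.32% lower. On overexpression 24 were compared, with 10 higher and 2 lower (median 0.85). There 6.60% of all genes were higher and 10.1% lower, the latter near the 8.33% of this list. In sorted cells the endocytic adaptor Dab2 was 0.78 and 233 FPKM (7.04), the X-linked homeobox gene Rhox5 23.2 and 1410 FPKM (5.87), and the fatty acid binding protein Fabp3 241 and 3999 FPKM (4.05). On overexpression the matrix protein Tinagl1 was 4.21 and 45.5 FPKM (3.16), the homeobox gene Rhox6 10.8 and 71.4 FPKM (2.62), and the imprinted placental gene Peg10 9.96 and 59.5 FPKM (2.46). Dab2 and Rhox5 are genes of the primitive endoderm as well. Dab2, Cd55 and Rhox6 were below 1 FPKM in negative cells (0.78, 0.64 and 0.67 FPKM), as was Stra6 with GFP (0.33 FPKM). In those experiments they counted as higher but reached the minimum only through the KLF3 condition and had to be higher there. With the trend with gene length removed, 8 genes of the list were higher on overexpression and the median was 0.48.

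Most markers of the primitive endoderm were higher in both KLF3 conditions, as were Krt8 and Krt18. Of 25 primitive endoderm markers, 20 of the 21 compared were more than 2-fold higher in positive cells (median 3.98) and 21 of 22 with KLF3 overexpression (median 1.96). The shares of all genes compared were 13.8% and 6.60%. The 23 listed summed to 489 FPKM in negative, 6063 FPKM in positive, 1246 FPKM in GFP- and 2698 FPKM in KLF3-overexpressing cells. Foxa2, Hnf4a, Cubn and Ttr were at the lowest value in negative cells, and no listed marker was at it in either KLF3 condition. Markers below 1 FPKM in negative cells, such as these and Dab2 (0.78 FPKM), had to be higher in positive cells if compared. Srgn, a proteoglycan of parietal endoderm, was 2.29 and 1860 FPKM in sorted (9.14) and 10.4 and 142 FPKM in overexpressing cells (3.66), and Amn, a subunit of the endocytic receptor of visceral endoderm, was 2.39 and 185 FPKM (5.78) and 1.18 and 11.7 FPKM (2.55). The keratins Krt8 and Krt18 are expressed in this lineage too. Of the member transcription factors, Cdx2 and Gata3 stayed at 0.66 FPKM or less in every condition. In positive and KLF3-overexpressing cells, Tead4 was 5.08 and 6.80 FPKM, Eomes 1.48 and 3.43 FPKM, and Tfap2c 0.77 and 13.1 FPKM. The part of endoderm cells in the keratin values was not tested.

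The labelled cell type was checked with 16 pluripotency markers, all of which were listed. They summed to 1553 FPKM in negative and 585 FPKM in positive cells, with 11 of 15 compared more than 2-fold lower and 1 higher. Among all genes compared there, 8.32% were lower and 13.8% higher, and on overexpression 10.1% were lower and 6.60% higher. Among the largest differences, the Nodal coreceptor Tdgf1 was 324 and 68.9 FPKM (-2.22), Fgf4 13.6 and 2.84 FPKM (-1.93) and Sox2 39.4 and 9.64 FPKM (-1.92). On overexpression the sum was 3022 FPKM with GFP and 2559 FPKM with KLF3, with 4 of 16 lower and 1 higher, but 2 lower with median-ratio scaling and 7 with the trend with gene length removed. Prdm14 was 11.9 and 3.20 FPKM (-1.61), Nanog 255 and 103 FPKM (-1.30) and Gbx2 9.17 and 26.7 FPKM (1.45). Fibroblast and feeder markers were low, with 5 of 17 listed in sorted cells (summing to 6.89 and 3.45 FPKM) and 10 in overexpressing cells (27.8 and 86.0 FPKM). Most of the last sum was Tagln, an actin-binding protein of smooth muscle, at 14.7 FPKM with GFP and 62.1 FPKM with KLF3 (2.01), followed by Acta2 (7.02 and 14.9 FPKM) and S100a4 (1.06 and 2.98 FPKM). In sorted cells Tagln was 5.95 and 1.28 FPKM (-1.61). The collagen genes Col1a1 and Col1a2 did not exceed 0.40 FPKM in any column that listed them.

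**Figure D5:**
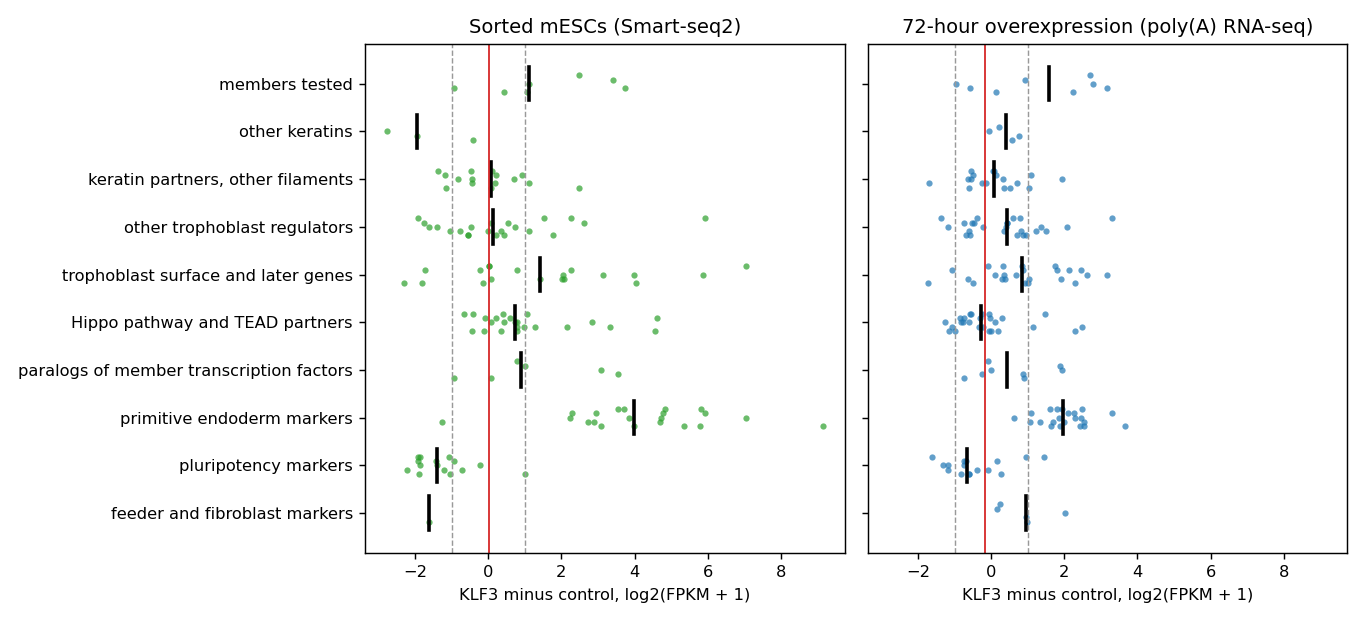
Difference of log2(FPKM + 1), KLF3 condition minus control, of each gene compared (points), by gene list, in sorted (left) and overexpressing cells (right). Black bars are list medians, the red line is the median of all genes compared (0.03 and -0.18) and dashed lines mark 2-fold. The medians of primitive endoderm markers are 3.98 and 1.96, and those of the members are 1.13 and 1.59.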

How the data were processed

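RNA-seq of 8 samples was used, 2 for each of 4 conditions, which were assigned by their genotype labels. The authors aligned reads to mm10 with STAR (version 2.6.0 in the submitters' processing notes) with the GENCODE annotation and deposited FPKM values from Cufflinks (version 2.2.1), as 1 mean of 2 replicates per condition, for protein-coding genes, rounded to 2 decimals. Depth per sample is unknown, and Cufflinks means do not give back whole reads. The authors called genes with DESeq2 on counts that were not used here. From the deposited FPKM, log2(FPKM + 1) differences were computed within each table, and genes averaging 1 FPKM or more over its 2 columns were compared, with calls past 2-fold. Where an identifier had more than 1 locus, that with the highest mean was kept. Starts in the tables count from 0 and were raised by 1. No test was made, since each condition has 1 value.

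The members and gene lists were chosen with earlier results of these data known. Named are the members, the 5 genes closest to Krt8, Krt18 and Krt19, genes within 200 kb of Krt8 and Krt18, and the 3 genes of each list with the largest absolute difference per experiment. Yap1, Tead2, Gata2, Nf2, Mob1a, Vgll4, Fgfr2, Cd55, Stra6, Col1a1 and Col1a2 were named after their values were seen. Scripts were tested on simulated data. Python 3.11.15, pandas 2.3.3 and statsmodels 0.14.6 were used, with GENCODE M21 transcripts (GRCm38) for shared sequence and RefSeq windows (GRCm38.p6).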

Additional observations from a re-analysis of the deposited data

How the results depend on the processing

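The direction of the Krt8, Krt18, Krt19 and Plac1 differences and their side of the 2-fold limit held in both experiments under every alternative in which they were compared. The alternatives were a pseudocount of 0.1 FPKM, a floor of 0.1 FPKM without pseudocount, no minimum level, a mean of at least 5 FPKM, median-ratio scaling, quantile normalization, and removal of the lowess trend (fraction 0.3) with genomic span. Krt8 ranged from 3.30 to 3.50 in sorted and from 2.39 to 2.91 in overexpressing cells, and Krt18 from 3.64 to 3.85 and from 2.66 to 3.39. Krt19 ranged from 1.03 to 1.76 and from 2.48 to 2.98, and Plac1 from 2.40 to 5.68 and from 2.25 to 4.61. The number of members more than 2-fold higher in sorted cells was 2 with a mean of at least 5 FPKM, which left out low genes. The number more than 2-fold lower, 0 in both experiments, became 1 (Tfap2c) in sorted cells with a pseudocount of 0.1 FPKM, with the floor and with quantile normalization, and 1 (Tfap2c) on overexpression with the floor and with the trend removed. Krt7 passed the limit on overexpression with a pseudocount of 0.1 FPKM (1.06), the floor (1.08), median-ratio scaling (1.10) and quantile normalization (1.21). Among the keratin members, leaving out genes below 1 FPKM in both columns gave a type II share of 57.2% in negative and 52.5% in positive cells. Tead4 in sorted cells fell short of the limit with quantile normalization (0.92) and with the trend removed (0.96). The causes were not tested.

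No paired analysis was possible because the columns are means over replicates and carry no replicate numbers, and leaving out each replicate was not run for the same reason. Replicate spread and depth are hidden by the means. Without a pseudocount, Cdx2 was 2.51 in sorted and 2.59 in overexpressing cells, and Gata3 was -1.59 and 1.59, all below the minimum level.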
